A study of Nematostella vectensis with 17 samples.

Results

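The peaks described here were listed with antibody AB2 and had no counterpart with antibody AB1 in a chromatin immunoprecipitation (ChIP-seq) study of the transcription factor Brachyury in the sea anemone Nematostella vectensis. A peak of the AB2 list was counted as AB2-only if it overlapped no peak of the AB1 list on the same scaffold, at 0 bp of overlap. There were 4762 such peaks among the 16005 of the AB2 list. The remaining 11243 AB2 peaks overlapped at least 1 of the 14257 AB1 peaks and are called shared. The name states only what the lists hold, since an AB1 signal at sites that the AB1 list does not name was not analysed here.

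Chromatin came from whole embryos at the gastrula stage, raised at 21 °C, for all 3 ChIP-seq samples (AB1, AB2 and an input). No genotype, morpholino or other treatment of these embryos, and no number of pooled embryos, was recorded in the labels. Embryos were fixed with formaldehyde at 2% for 12 min, and chromatin was sheared to fragments of about 100 to 200 bp. The AB1 and AB2 antibodies were custom made against the same antigen, the full-length Nematostella Brachyury protein with a histidine tag, produced in bacteria and injected into 2 rabbits. The labels do not say which antibody came from which animal. The series also holds 14 RNA-seq libraries of embryos injected with morpholinos, which were not used here.

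Brachyury is a T-box factor, a family whose members bind DNA through a conserved domain. In Nematostella its gene is expressed around the blastopore, the opening through which gastrulation proceeds, and in vertebrates it is known for its role in mesoderm and notochord. In ChIP-seq, an antibody pulls down fragments bound by its target, and a peak is a place where reads from the pulled-down DNA exceed those of a control. An antiserum raised against a whole protein holds many antibodies to different parts of it, so separate antisera to the same protein can differ in strength and in what else they bind. In whole embryos a peak's height does not tell how many cells carry the factor from how strongly it is bound in each.

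Each peak carried a ChIP signal, a control signal, their ratio (the fold over control), a score and a tag distribution score, all as deposited by the authors, in units that were not stated. The file does not name the control library. The score equalled the ChIP signal minus the control signal, multiplied by the distribution score, to within 0.0294 in the AB2 list. Both lists had a lowest score of 1 and a lowest fold of 2. Nearly all AB2 peaks (15992) were 158 bp long and nearly all AB1 peaks (14226) were 244 bp long, so that full-length peaks overlapped when their summits lay less than 201 bp apart. Where peaks were shared, the AB1 control signal was a median of 1.46 times the AB2 control signal (5th to 95th percentile 1.11 to 2.07), and signals are therefore compared here within the AB2 list. Each antibody had 1 library and 1 list. No value below has a replicate error, peaks are not replicates, and differences between classes of peaks are descriptions that were not tested.

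AB2-only peaks were the weaker peaks of the list by ChIP signal, with a slightly higher control signal. Their ChIP signal ranged from 1.28 to 19.49 with a median of 1.83, where shared AB2 peaks had a median of 2.64. Quartiles were 1.6 and 2.18 for AB2-only peaks and 1.98 and 3.97 for shared peaks, so the classes overlapped widely. The control signal ranged from 0.02 to 9.59 with a median of 0.5, and was 0.46 at the median of the shared peaks. The fold over control had a median of 3.66 (quartiles 2.91 and 4.83) in AB2-only peaks and 6.05 (4.25 and 9.55) in shared peaks. A fold of at least 4 was reached by 1967 AB2-only peaks, or 41.3%, where 67.9% of the AB2 list and 79.2% of the shared peaks reached it. A fold of at least 10 was reached by 134 AB2-only peaks, or 2.81%, against 17.0% of the list.

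The scores were close to the floor of the list. The median score of AB2-only peaks was 1.3 and that of shared peaks 2.15, and 3296 AB2-only peaks (69.2%) scored below 1.5, against 23.8% of shared peaks. A score of at least 5 was found in 51 AB2-only peaks (1.07%) and in 1453 shared peaks (12.9%). With the AB2 list limited to peaks at or above its median score, 780 peaks remained AB2-only. The mirror class, the 3650 peaks found only with AB1, had a median score of 1.35 on the scale of its own list and a median fold of 2.89, against 2.19 and 4.48 for shared AB1 peaks.

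**Figure D1:**
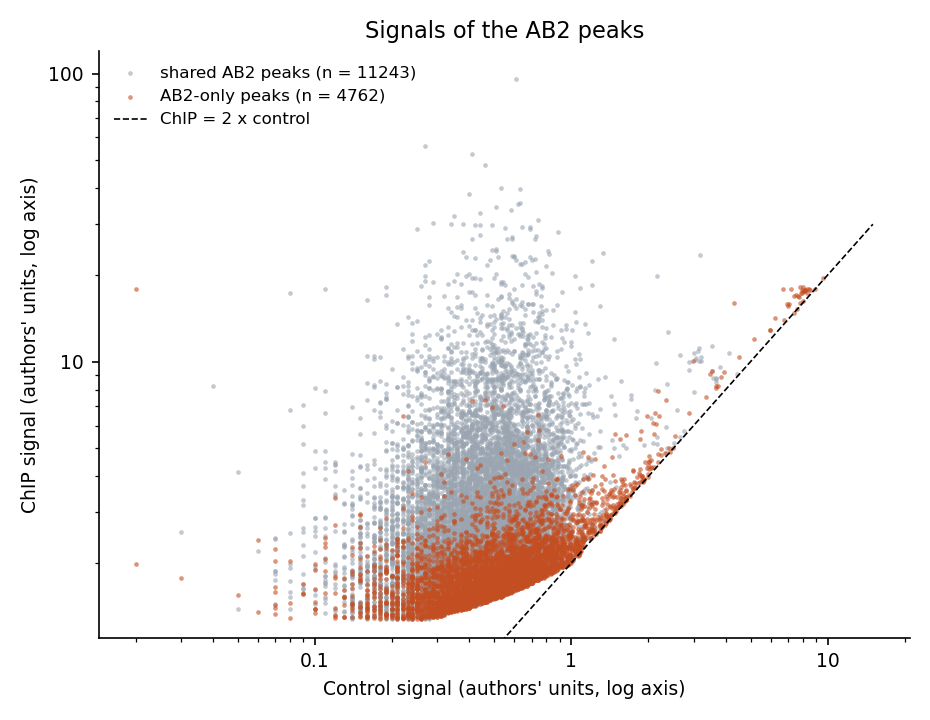
ChIP signal against control signal for every peak of the AB2 list, on log axes in the authors' units, with AB2-only peaks (orange, n = 4762) drawn over shared peaks (grey, n = 11243) and a dashed line at a fold of 2. AB2-only peaks fill the lower edge of the cloud, where the score is near 1, and extend along the dashed line to a group with control signals up to 9.59.

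Score and control signal were then considered jointly, since a peak of a given score can have a low ChIP signal over a low control or a high ChIP signal over a high control. The AB2 list was divided into 10 bins of near-equal size by score, from bin 1 (lowest scores) to bin 10 (highest). The share of AB2-only peaks was 65.5% in bin 1, 33% in bin 5, 7.12% in bin 8, 2.8% in bin 9 and 3.19% in bin 10. It thus fell through the first 9 bins and was slightly greater in bin 10 than in bin 9.

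Within the score bins, the control signal of AB2-only peaks had the higher median in all 10 bins, the ChIP signal had the higher median in all 10 and the fold had the lower median in all 10. The score is nearly the difference of both signals, so at like score these 3 statements follow from each other and are a single observation. The gap was small in bin 1, where the median control signal was 0.5 in AB2-only and 0.45 in shared peaks. It was larger in bin 7, at 0.61 and 0.45, and in bin 9, at 0.74 and 0.48. With a lowest fold of 2, the control signal can hardly exceed the score. Its highest value was 1.4 in bin 1 and 9.59 in bin 10. The widening of the gap over bins is therefore bound to the score and is not a separate observation. In bin 10 the median control signals were 7.05 and 0.5, and the median folds were 2.26 and 16.2. That bin spans scores of 4.83 to 95.23 and did not match the classes for score. Its median scores were 8.82 in AB2-only and 6.98 in shared peaks.

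With the list divided into 10 bins by control signal instead, the share of AB2-only peaks was nearly level up to the most covered sites. It was 26.4% in the bin with the lowest control signal (0.02 to 0.25), 25.8% in bin 5 and 31.5% in bin 9. In the bin with the highest control signal (0.8 to 9.59) it was 48.5%. A control signal of at least 1 was found at 388 AB2-only peaks (8.15%) and at 212 shared peaks (1.89%), and one of at least 2 at 71 and 38.

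**Figure D2:**
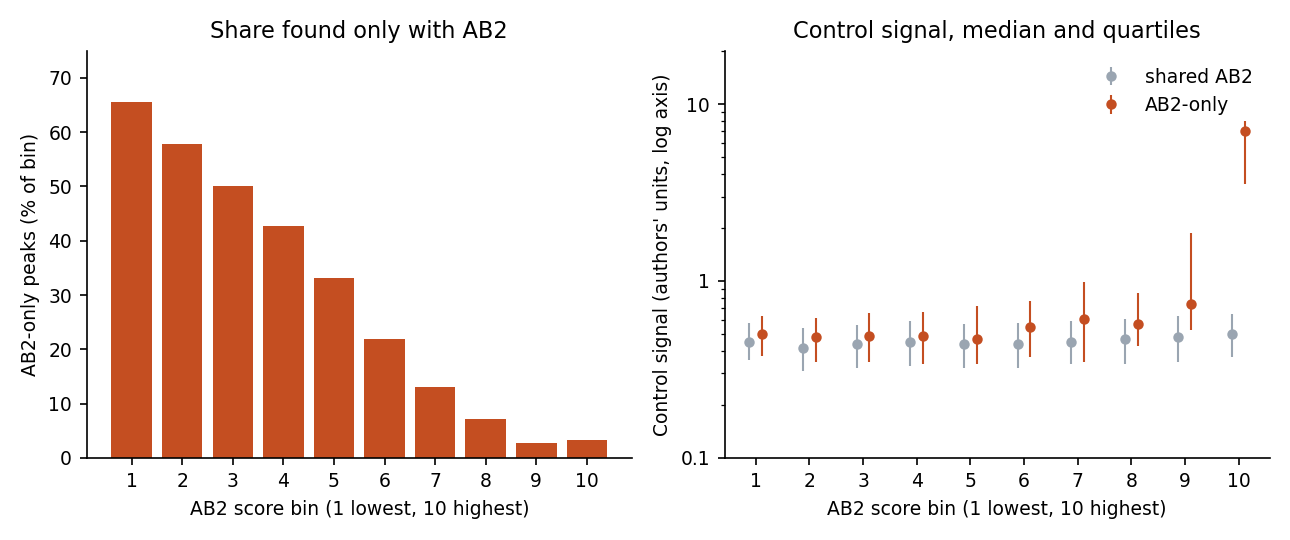
Left, the percentage of AB2 peaks that were AB2-only in each score bin, falling from 65.5% in bin 1 to 2.8% in bin 9. Right, the control signal (log axis, median with quartiles as bars) of AB2-only (orange) and shared (grey) peaks in the same bins, with the medians of bin 10 at 7.05 and 0.5.

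The strongest AB2-only peaks by score were mostly sites with a high control signal. Of the 51 AB2-only peaks in score bin 10, 36 had a control signal of at least 4, a limit chosen after the values were seen. In the whole list 2 shared peaks reached that control signal. The 36 peaks lay on 25 scaffolds and had control signals of 4.31 to 9.59 with a median of 7.75. Their ChIP signals were 10.41 to 19.49 with a median of 17.2, and 29 of them lay between 15 and 20. Their folds ran from 2.01 to 3.7 with a median of 2.18, just above the lowest fold of 2 in the list. Most of them (27) were on scaffolds with no AB1 peak, and 0 lay within 1000 bp of an AB1 peak.

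Several of these peaks stood at the head of the AB2-only class. On nemVec1 scaffold 247 at 312450 to 312607, the ChIP signal was 15.93 and the control signal 4.31, with a score of 11.63 and a fold of 3.7. On scaffold 299 at 44338 to 44495 the ChIP signal was 17.89 over a control signal of 6.7, a fold of 2.67. On scaffold 885 at 43360 to 43517 it was 17.86 over 7.18, and on scaffold 2183 at 14442 to 14599 it was 18.23 over 7.79. Among AB2-only peaks these 4 scores came directly after the highest. They ranked 239, 263, 286 and 300 in the AB2 list, and the last 2 were on scaffolds without an AB1 peak.

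The sites with the highest control signals were nearly at the lowest fold. Scaffold 1778 at 8168 to 8325 had a ChIP signal of 19.49 over a control signal of 9.59, a fold of 2.03. Scaffold 704 at 76727 to 76884 had 17.87 over 8.9, a fold of 2.01, and scaffold 2375 at 25 to 182 had 17.7 over 8.51, a fold of 2.08. None of these 3 scaffolds had an AB1 peak. Shared AB2 peaks with a ChIP signal of at least 15 numbered 141 and had a median control signal of 0.55. Of the 30 AB2-only peaks with such a ChIP signal, 29 had a control signal of at least 4. The part that high control coverage has in the AB2 list at these sites was not tested.

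The highest score of the class was the exception. On scaffold 13417 at 830 to 987 the ChIP signal was 17.87 and the control signal 0.02, with a score of 17.84 and a deposited fold of 759.58, the highest fold of the whole AB2 list. That fold rests on a control signal near 0, and signals were written to 2 decimals. The scaffold had no AB1 peak and no shared AB2 peak. The AB2-only peaks with the next highest folds had low ChIP signals over low control signals. They were found on scaffold 389 at 179741 to 179898 (ChIP signal 1.99, control signal 0.02, fold 84.76), scaffold 550 at 85434 to 85591 (1.78, 0.03 and 51.41), scaffold 3394 at 8523 to 8680 (2.4, 0.06 and 43.17) and scaffold 418 at 132002 to 132159 (1.55, 0.05 and 32.31).

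The other 15 AB2-only peaks of score bin 10 had control signals under 4, and 10 of these lay under 200 bp from an AB1 peak. The 10 scored 5.02 to 6.89 and had folds of 2.61 to 30.08. Their nearest AB1 peak was 12 to 143 bp away and scored 2.19 to 49.47, and for 9 of the 10 it was among the highest-scoring 10% of the AB1 list. On scaffold 92 at 61128 to 61285 the AB2-only peak had a ChIP signal of 7.31, a control signal of 0.41 and a fold of 17.72, and lay 83 bp from an AB1 peak that scored 10.02. On scaffold 222 at 45467 to 45624 it had 7.34 over 0.46, a fold of 15.9, and lay 24 bp from an AB1 peak that scored 32. These sites were chosen after their values were seen.

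Where AB2-only peaks lay relative to the AB1 peaks was examined next. Of the 4762 peaks, 4373 had an AB1 peak on their scaffold, and the gap between the nearest edges had a median of 1768 bp with quartiles of 289 and 11082 bp. The gap was under 200 bp for 871 peaks (18.3%), under 1000 bp for 1844 (38.7%) and under 10000 bp for 3199 (67.2%). In bins of 50 bp the number of peaks was 312 next to the AB1 edge, 273 in the next bin, 161 in the third and 36 in the last before 1000 bp. The other 389 AB2-only peaks lay on 331 scaffolds without an AB1 peak, of which 284 held a single AB2-only peak.

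Distances to the shared peaks of the same list were longer, an order that is largely set by how the lists are built. Each shared AB2 peak overlaps an AB1 peak, AB1 peaks are the longer ones, and 3650 AB1 peaks have no AB2 counterpart. The nearest shared AB2 peak lay at a median of 2770 bp (quartiles 414 and 15507 bp, 4323 peaks with one on the scaffold). For a shared AB2 peak, the nearest other shared AB2 peak lay at a median of 909 bp. Another shared AB2 peak was found under 1000 bp away for 33.7% of AB2-only peaks and for 49.5% of shared peaks. Under 200 bp these shares were 14.4% and 26.7%, so closeness to a shared peak was more frequent among shared peaks. Overlap with a shared AB2 peak was found for 23 AB2-only peaks. Without the AB2-only peaks under 200 bp from an AB1 peak, the median gap to AB1 was 4189 bp and that to a shared AB2 peak 5848.5 bp.

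**Figure D3:**
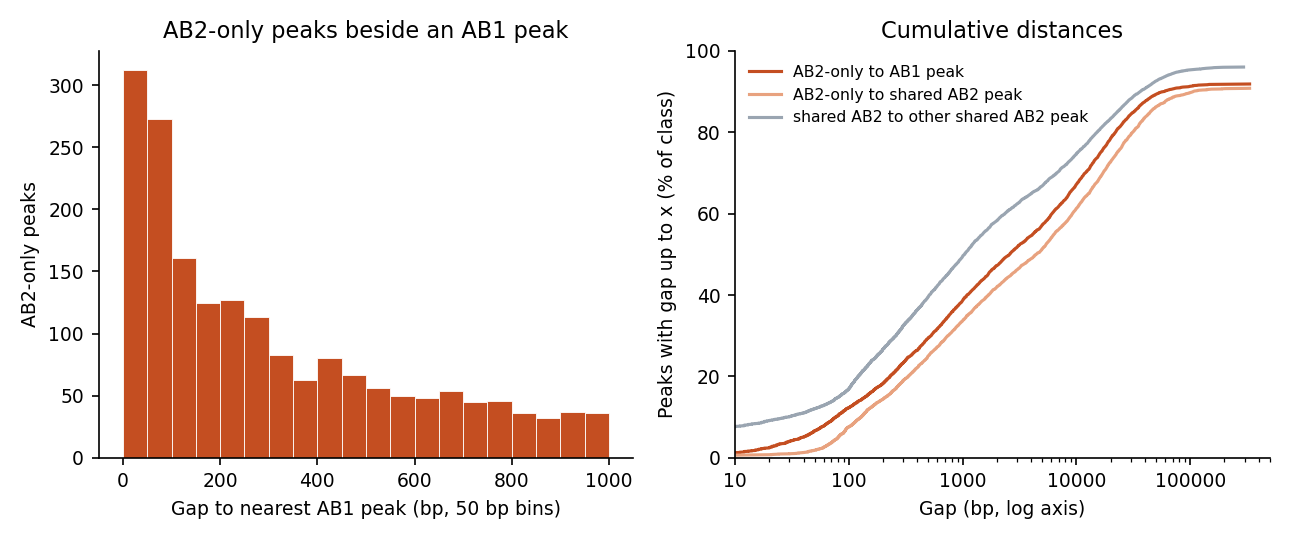
Left, the number of AB2-only peaks by their gap to the nearest AB1 peak in bins of 50 bp, highest beside the AB1 edge at 312. Right, the cumulative percentage of peaks by gap (log axis) for AB2-only to AB1 peaks, AB2-only to shared AB2 peaks and shared to other shared AB2 peaks; curves end below 100% where a scaffold holds no such peak, and overlaps count as the smallest gap.

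The surroundings of the AB2-only peaks closest to AB1 peaks were examined. For 761 of the 871 AB2-only peaks under 200 bp (87.4%), the nearest AB1 peak was itself overlapped by another AB2 peak, where 74.4% of all AB1 peaks were overlapped by an AB2 peak. In 664 of these 761 cases the AB2-only peak scored lower than that neighbour, with medians of 1.37 and 2.7. Where several AB2 peaks overlapped the AB1 peak, the highest score was taken. In the whole list AB2-only peaks also scored lower than shared peaks, with medians of 1.3 and 2.15. The order is therefore not particular to close peaks, and its share in pairs taken at random was not computed. Summits of the 871 peaks lay a median of 271 bp from the AB1 summit and 268 bp from the nearest other AB2 summit. They had 840 different nearest AB1 peaks, and 24 AB1 peaks had such an AB2-only peak on both sides. Summits within a list came as close as 81 bp in the AB2 list and 142 bp in the AB1 list. With AB2 peaks widened to 244 bp about their summits, the length of the AB1 peaks, 4504 remained AB2-only.

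A strong site on scaffold 4, chosen after its values were seen, is an example with AB2-only peaks on both sides. It is not typical, since 24 of the 840 nearest AB1 peaks had such peaks on both sides. The median score of those 840 AB1 peaks was 2.31. The AB1 peak there scored 49.47 and its shared AB2 partner 55.87, with a ChIP signal of 56.14 over a control signal of 0.27. On one side, an AB2-only peak with a ChIP signal of 5.19 over 0.6 scored 4.59. On the other side, the AB2-only peak at 1074162 to 1074319 had a ChIP signal of 7.01 over 0.54 and scored 6.47, and a further one scored 1.54. The ChIP signals of the flanking AB2-only peaks were thus well below that of the central peak, over control signals that were higher than its own.

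Within about 10 bp of the border of the rule, members and non-members had similar median values. The 49 AB2-only peaks with a gap of 0 to 9 bp had a median score of 1.3 and a median fold of 3.83, and the 59 shared peaks that overlapped by 1 to 10 bp had 1.37 and 4.16. Gaps of 0 bp were found for 6 AB2-only peaks, which scored 1.06 to 1.58 with a median of 1.355. The best of these scored 1.58 (2192766 to 2192923 of scaffold 2), followed by 1.57 (843998 to 844155 of scaffold 67) and 1.47 (1039114 to 1039271 of scaffold 37). On the other side, 6 shared peaks met the AB1 list by 1 bp and scored 1.08 to 3.57 with a higher median of 2.275. The 3 highest of these scored 3.57 (312558 to 312715 of scaffold 126), 2.53 (228253 to 228410 of scaffold 148) and 2.38 (861872 to 862029 of scaffold 73).

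AB2-only peaks near and far from AB1 peaks on the same scaffold had similar median control signals, with a somewhat higher fold under 200 bp. The median fold was 3.98 under 200 bp, 3.62 at 200 to under 1000 bp, 3.64 at 1000 to under 10000 bp and 3.62 at 10000 bp or more. The median control signal in these classes was 0.48, 0.52, 0.49 and 0.5. A fold of at least 4 was reached by 49.6%, 39.1%, 39.6% and 40.1% of their peaks, in the same order. On scaffolds without an AB1 peak the median control signal was 0.66 with an upper quartile of 1.37, and the median fold was 3.01. The AB2-only peaks farthest from an AB1 peak on their scaffold were weak. They lay on scaffold 184 at 385285 to 385442 (gap 332468 bp, score 1.01) and at 311323 to 311480 (258506 bp, 1.51), and on scaffold 312 at 248553 to 248710 (199265 bp, 1.07).

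The share of AB2-only peaks under 200 bp from an AB1 peak did not follow the score evenly. It was 16.5% in score bin 1, 14% in bin 3, 20.9% in bin 5, 36.3% in bin 8, 51.1% in bin 9 (23 of 45) and 19.6% in bin 10 (10 of 51). A control signal of at least 1 was found at 1.86% of the AB2-only peaks in bin 1, 24.4% in bin 7, 18.6% in bin 8, 42.2% in bin 9 and 82.4% in bin 10. In shared AB2 peaks these shares were 0.882%, 1.14%, 1.83%, 2.31% and 5.3%. The control signal was above the score in 5 of the 4762 AB2-only peaks. With a lowest fold of 2 and a score that is nearly the difference of both signals, the control signal and the score are bound to each other, and the rise over bins is not a separate observation. Few AB2-only peaks had both properties, with 4 in bin 9 and 2 in bin 10. In bin 9, 38 of the 45 peaks therefore had at least 1 of them, against 198 of 1076 in bin 1 and 50 of 51 in bin 10. Shared peaks overlap an AB1 peak by definition, so they give no like share to set beside these counts.

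Runs of neighbouring peaks were counted within each class. When summits within 1000 bp were joined, 818 AB2-only peaks (17.2%) stood in a run with another AB2-only peak, against 47% of the shared AB2 peaks with another shared peak. The shared class was more numerous, and the shares were not adjusted for that. The AB2-only runs comprised 314 of 2 peaks and 53 of 3 or more.

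The longest run held 17 AB2-only peaks over 4587 bp on scaffold 384 at 105246 to 109832. Their ChIP signals were 1.58 to 2.67, their control signals 0.23 to 0.89 and their scores 1.03 to 2.17. In the run lay 2 shared AB2 peaks, with scores of 1.64 and 2.42, and both met the same AB1 peak, which scored 1.03. The run on scaffold 42 at 499546 to 502325 held 9 AB2-only peaks with folds of 3.22 to 9.87 and 1 shared peak. The run on scaffold 471 at 21713 to 22979 held 6 and no shared peak, with control signals of 0.98 to 1.54 and folds of 2.08 to 2.86, and its AB2-only peaks were at least 43756 bp from an AB1 peak.

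**Figure D4:**
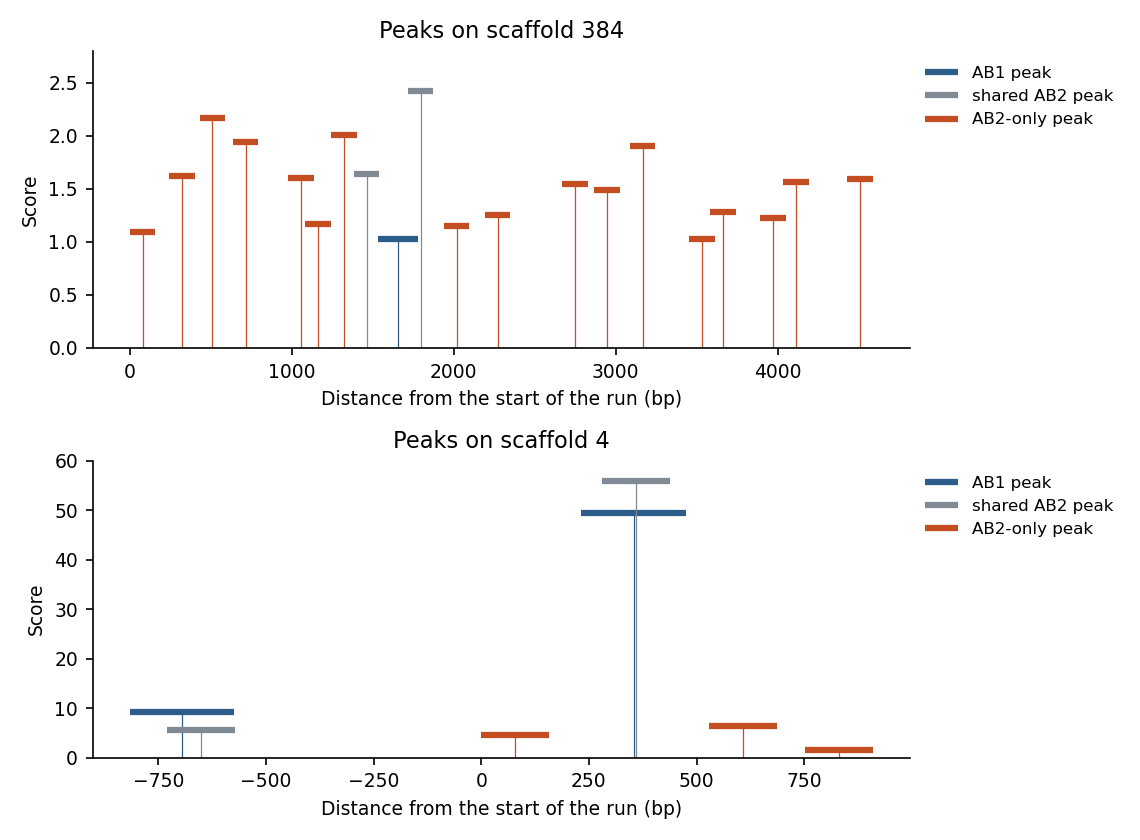
Peaks along the run on scaffold 384 (top) and around the strong site on scaffold 4 (bottom), drawn to scale from the start of the AB2-only run in bp, with each bar spanning a peak at the height of its score and a thin line at its summit. On scaffold 384 the 17 AB2-only peaks (orange) score 1.03 to 2.17 around a single AB1 peak (blue) of 1.03; on scaffold 4 AB2-only peaks flank an AB1 peak of 49.47 and its shared AB2 partner (grey) of 55.87.

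Across the assembly, AB2-only peaks occurred on 925 of the 1430 scaffolds with an AB2 peak. Scaffolds 2, 3 and 4 held the most, with 76, 59 and 58, which was 27.3%, 29.8% and 24.6% of their AB2 peaks. Among the 218 scaffolds with at least 20 AB2 peaks the median share was 28.1%, and the 10th and 90th percentiles were 20% and 39%. The highest share was that of scaffold 384, at 62.9% (22 of 35 AB2 peaks), and 17 of the 22 belonged to the run above. The lowest was that of scaffold 306, at 12.5% (5 of 40).

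The FDR column of the AB2 list, whose scale was not stated, was used as a further limit. It had a Spearman correlation of -0.7951 with the score, so the limit is not independent of the score bins above. With peaks above 5 in that column left out of both lists, 5944 AB1 and 939 AB2 peaks were left. Of the latter 42 had no AB1 counterpart, of which 41 belonged to the 4762 AB2-only peaks and 1 was shared in the full lists. The order of the ChIP signals turned, with a median of 16.9 in AB2-only peaks and 9.53 in shared peaks. Their median control signals were then 7.56 and 0.51, and their median folds 2.205 and 20.3.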

How the data were processed

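ChIP-seq peak lists were used, 1 per antibody. Per the file headers, the deposited columns hold a position, a ChIP signal and a control signal (signal), a fold enrichment (ratio), a peak score, a distribution score and an FDR, which was treated as a score because its scale was not stated. BWA is in the submitters' processing notes, and the genome build nemVec1 is named with the lists. The peak caller, its thresholds and the control library were not given in the sources used here. The files give no read counts, so depth is unknown and no counting interval can be given. Starts were taken as 0-based, since the lowest was 0, and printed as 1-based.

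Overlaps (at least 1 bp), gaps between edges, 10 bins by score and runs (summits within 1000 bp) were computed with Python 3.11.15, pandas 2.3.3 and numpy 2.4.6, and the code was tested on simulated data. The deposited fold was within 1.26% of ChIP signal over control signal for 90% of AB2 peaks. With 1 list per antibody no test was made. Named regions were taken by rank of score, fold, control signal, gap and run length within the AB2-only peaks. The members and rules were chosen with earlier results of these data known. No column of per-sample values lacked a sample (0 columns). The control column of each list was not counted among these and was tied to no single sample, because its library is not named. Sequence and genes of nemVec1 and the RNA-seq counts were not used here.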

Additional observations from a re-analysis of the deposited data

How the results depend on the processing

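No paired analysis was possible because each antibody had 1 list. The first 8 alternatives were planned; counting touching peaks as overlapping (4756 peaks), widening AB2 peaks, leaving out control signals of at least 4 and leaving out gaps under 200 bp were chosen after seeing the data. The median fold was lower than in shared peaks under all 11 alternatives that gave it, the control signal higher under all 10, and the ChIP signal lower under 9 of 10. The control signal was the higher in 10 score bins under each alternative that gave this count, other than the FDR limit (8). Bins without peaks of both classes could not count, and their number under that limit was not recorded. Values below moved beyond the binomial interval of the value (counts by over 1.5 times), and the cause was not tested. The interval treats peaks of 1 list as independent, so it is narrow and is no replicate error. It served only to choose which values to print. Requiring 50% cover gave a fold of 3.72, gaps of 1173 bp to AB1 and 1917 bp to shared peaks, 19.99% in runs and 43.2% past 4-fold. Members at least 1000 bp from AB1 numbered 2918, with 3.59, 8811 bp, 11195.5 bp, 12.3% and 39.6%. AB2 peaks at or above the median score gave 780 peaks, ChIP signal 2.82, control signal 0.6, fold 4.59, 975.5 bp, 2328 bp, 9.615% and 61.4%. Dropping the lowest 10% of AB1 gave 3.72, 2240 bp, 3221.5 bp, 18.5% and 42.9%. The FDR limit of 5 gave 42 peaks, ChIP signal 16.9, control signal 7.56, fold 2.205, 106 bp to shared peaks, 30.95% and 14.3%. That gap covers only those of the 42 with a shared peak on their scaffold, a number that was not recorded. The median gap to AB1 under this limit was 1827 bp, likewise only where the scaffold held an AB1 peak. A pseudocount of 1 gave a fold of 1.86 (shared peaks 2.48). Widening gave 2206 bp, 3523 bp and 16.05%. Leaving out gaps under 200 bp gave 3.6, 4189 bp, 5848.5 bp, 13.8% and 39.45%.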

Other observations

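Some AB2-only peaks with high control signals lay close together. On scaffold 799 at 26887 to 27493, 3 of them had ChIP signals of 17.09 to 17.58 and control signals of 7.55 to 8.01. On scaffold 247, the AB2-only peaks at 312450, 312807 and 316315 had control signals of 4.31, 2.34 and 2.17, and 13 of the 29 AB2 peaks of that scaffold (44.8%) were AB2-only. Of the 36 AB2-only peaks with a control signal of at least 4, 10 began within the first 500 bp of their scaffold, where 1.87% of all AB2-only peaks did. Peaks beginning at position 1273 were found on scaffold 2351 (ChIP signal 17.77, control signal 7.95) and on scaffold 628 (17.83 and 8.43). Whether their sequences are alike was not analysed here.

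The peaks found only with AB1 were set beside those found only with AB2. Under 200 bp from a peak of the other list lay 9.67% of the 3650 AB1-only peaks and 18.3% of the AB2-only peaks, and no peak of the other list was on the scaffold for 19.9% and 8.17%. In the AB1 list 27 peaks had a control signal of at least 4, of which 11 were AB1-only, and their median fold was 2.21. Control signals at shared peaks were a median of 1.46 times higher in the AB1 list. The same limit is therefore not a like limit in both lists, and these counts are not directly comparable. The difference between the lists was not tested. Within the AB1 list, a control signal of at least 1 was found at 29.1% of AB1-only and 14.8% of shared peaks. In bin 10 of the AB1 score, the median control signals were 3.625 in 26 AB1-only peaks and 0.72 in shared peaks. The median folds there were 2.68 and 12.11. A high control signal at the strongest unshared peaks was thus not particular to AB2.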
